A study of Mus musculus with 6 samples.

Results

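The glucocorticoid receptor gene Nr3c1, the gene of the steroid-activating enzyme Hsd11b1 and 8 genes known as direct targets of the receptor (Fkbp5, Tsc22d3, Klf9, Ddit4, Sgk1, Zbtb16, Errfi1 and Cdkn1a) were followed in mouse bone marrow. They were chosen by name, with earlier results of these data known, and all 10 were among the 47561 entries of each library. Of the 10, 8 passed a minimum of 1 FPKM (fragments per kilobase of transcript, scaled by library depth) in at least 3 libraries and were among the 12302 genes tested. The 6 bone marrow libraries were 3 from mice put through 4 weeks of chronic unpredictable mild stress (CUMS), in which mild stressors vary from day to day as a model of depression, and 3 from control mice. No strain, sex, age or hour of collection is given in the sources used here, nor whether a library is 1 animal or a pool, so the spread that p-values rest on may be technical.

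Glucocorticoids, in mice mainly corticosterone, are the steroid hormones that the adrenal gland releases under stress. The receptor waits in the cytoplasm in a complex with HSP90 chaperones, enters the nucleus when it binds hormone, and activates genes near glucocorticoid response elements (GREs), or restrains inflammatory genes through contacts with other transcription factors. In the marrow these hormones are known to shift the output and traffic of leukocytes, and the targets followed here are among those used to read receptor activity in many tissues.

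Each library summed to 593129 to 653026 FPKM in CUMS and 561563 to 658595 FPKM in controls. Erythroid and neutrophil markers, which define marrow, were all above 0. The file headers carry a code of unstated meaning, which is 1 in both libraries numbered replicate 1 and 2 in the other 4, and 3747 of the 12302 genes (30.5%) differed by it, so that values within each code are given beside the pooled ones. The groups also stood apart in genes outside the glucocorticoid lists: the Y-linked Ddx3y averaged 12.03 FPKM in CUMS and 3.31 FPKM in controls, and Erdr1 averaged 2.54 FPKM in CUMS and 36.6 FPKM in controls. The part of such differences in the results was not tested.

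The sequence before the start sites was read first, for GREs close to them. RefSeq windows (GRCm38.p6), each from 250 bases before to 50 bases after a start site, matched 8 of the 10 genes, with 17 windows. They were searched on both strands for the full palindromic GRE (AGAACA, any 3 bases, TGTTCT), its arm TGTTCT alone, which the full site holds on both strands, the cyclic AMP response element (CRE) TGACGTCA and the CRE core TGACG, which the CRE holds on both strands. The full GRE was found in 1 of the 17 windows, at the fifth of the 6 start sites of Sgk1, 189 to 175 bases upstream (chr10:21993701-21993715). Only 3 of all 32851 windows (0.00913%) held it, and of these 3 genes only Sgk1 was expressed highly enough to be tested. The GRE arm was in 4 of the 17 windows, 3 of Sgk1 and 1 of Tsc22d3, against 19% of all windows. The CRE was in 1 of the 17 windows, that of the second start site of Errfi1 (1.79% of all windows), and its core in 4 (20.8% of all windows), among them that of Klf9. Sites farther from the starts were not analysed here. With a full GRE this rare over all windows, its absence from a window does not tell targets from other genes. The sequences shown are those of Sgk1 with the GRE and of 3 targets whose groups stood apart (below), each 5′ to 3′ on the gene's strand and ending at the base before the start site, or, for Ddit4, before the first annotated exon base. Capitals mark matches to the motifs, and those of Ddit4 and Fkbp5 hold none.
Sgk1, chr10:21993640-21993889, plus strand: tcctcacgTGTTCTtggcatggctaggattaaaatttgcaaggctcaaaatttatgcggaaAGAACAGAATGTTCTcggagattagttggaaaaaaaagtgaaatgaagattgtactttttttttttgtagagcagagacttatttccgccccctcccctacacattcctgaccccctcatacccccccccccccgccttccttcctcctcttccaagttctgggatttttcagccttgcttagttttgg
Klf9, chr19:23140976-23141225, plus strand: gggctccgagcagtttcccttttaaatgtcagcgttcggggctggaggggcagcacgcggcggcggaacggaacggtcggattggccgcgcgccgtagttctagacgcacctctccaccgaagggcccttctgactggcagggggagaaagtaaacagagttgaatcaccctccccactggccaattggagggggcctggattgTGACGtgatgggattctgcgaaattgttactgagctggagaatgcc
Ddit4, chr10:59951835-59952020, minus strand: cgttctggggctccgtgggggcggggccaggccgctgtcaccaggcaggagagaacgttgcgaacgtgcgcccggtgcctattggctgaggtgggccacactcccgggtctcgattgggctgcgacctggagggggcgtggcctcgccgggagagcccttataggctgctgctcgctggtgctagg
Fkbp5, chr17:28486150-28486399, minus strand: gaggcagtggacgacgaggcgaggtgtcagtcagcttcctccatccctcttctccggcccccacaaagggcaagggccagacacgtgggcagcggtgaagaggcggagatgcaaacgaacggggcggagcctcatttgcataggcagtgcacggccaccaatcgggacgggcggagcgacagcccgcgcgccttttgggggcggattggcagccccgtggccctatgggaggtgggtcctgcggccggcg

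**Figure D1:**
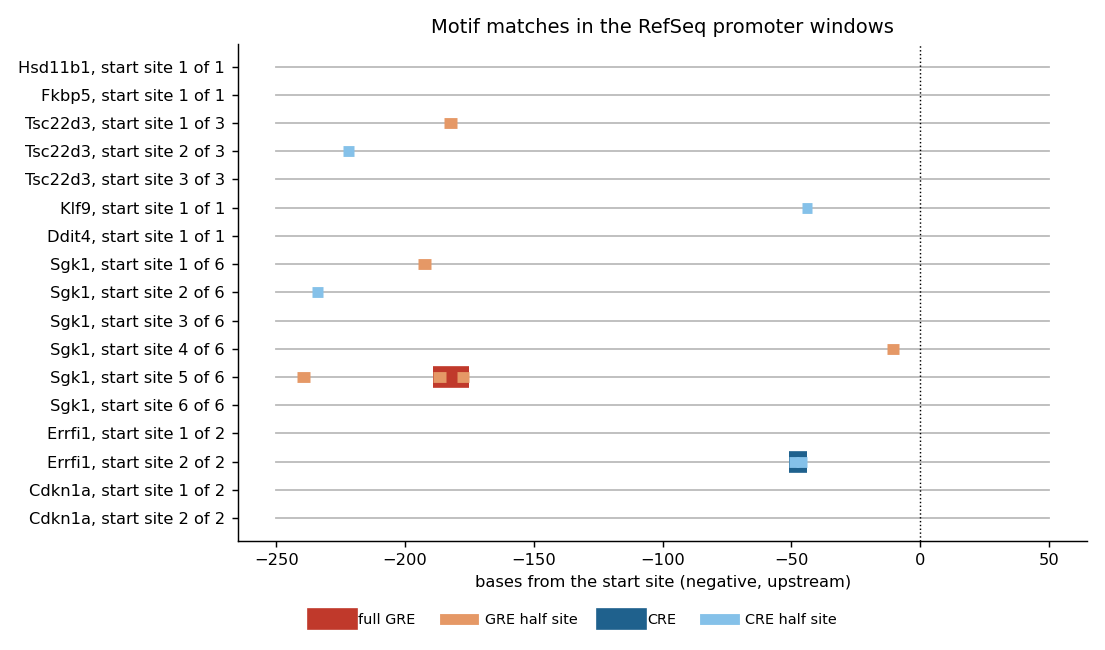
Matches to the glucocorticoid response element (GRE), the cyclic AMP response element (CRE), and the shorter arm and core of each, in the 17 promoter windows, drawn by their distance in bases from the start site. The single full GRE lies 189 to 175 bases before the fifth start site of Sgk1, and no window of Fkbp5 or Ddit4 holds any of the motifs.

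In CUMS marrow 2 of the 8 tested genes, Ddit4 and Klf9, rose, and none fell. With limma on log2(FPKM + 1), 1.07% of all tested genes were called, 0.618% higher and 0.455% lower, at a Benjamini-Hochberg adjusted p under 0.05. Tsc22d3 and Fkbp5 also lay higher in every CUMS library than in any control library, with adjusted p-values of 0.0838 and 0.118. They passed with the replicate number of the titles as a block (adjusted p = 0.0141 and 0.0351), where 4 of the 8 were called higher and none lower, against 3.49% and 4.31% of all tested genes (7.80% in all). The same 4 were called with the header code as a term, against 6.06% of all tested genes called higher and 7.31% lower (13.4% in all), and in the 4 libraries with code 2 alone, against 8.82% and 8.84% (17.7% in all). Groups that did not overlap, with CUMS higher, were found for 4 of the 8, and for 10% of all tested genes, while 12.1% had CUMS lower without overlap (22.1% in all). In the lists below, CUMS was higher without overlap for 10 of 17 immediate-early, 7 of 12 inflammatory, 11 of 24 other induced and 5 of 12 clock genes. It was so for 3 of 11 p53, 1 of 8 hypoxia and 0 of 8 ATF4 targets. With CUMS lower the counts were 0, 2, 1, 0, 3, 1 and 2 in the same order. Groups apart were thus not particular to the 8. The receptor, the enzyme, Sgk1 and Cdkn1a had overlapping groups. The median log2 change of the 8 was 0.22, against −0.0017 for all tested genes, and it was 0.22 in the pair with header code 1 and 0.24 in the 4 libraries with code 2. With 1 library left out, the number of the 8 called was 1 for CUMS replicate 1, 3 for control replicate 1, and 0 for replicate 2 or 3 of either group. In these fits the calls among all 12302 tested genes moved as well. They were 72, 19 and 17 without CUMS replicates 1, 2 and 3, and 262, 33 and 17 without control replicates 1, 2 and 3.

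**Figure D2:**
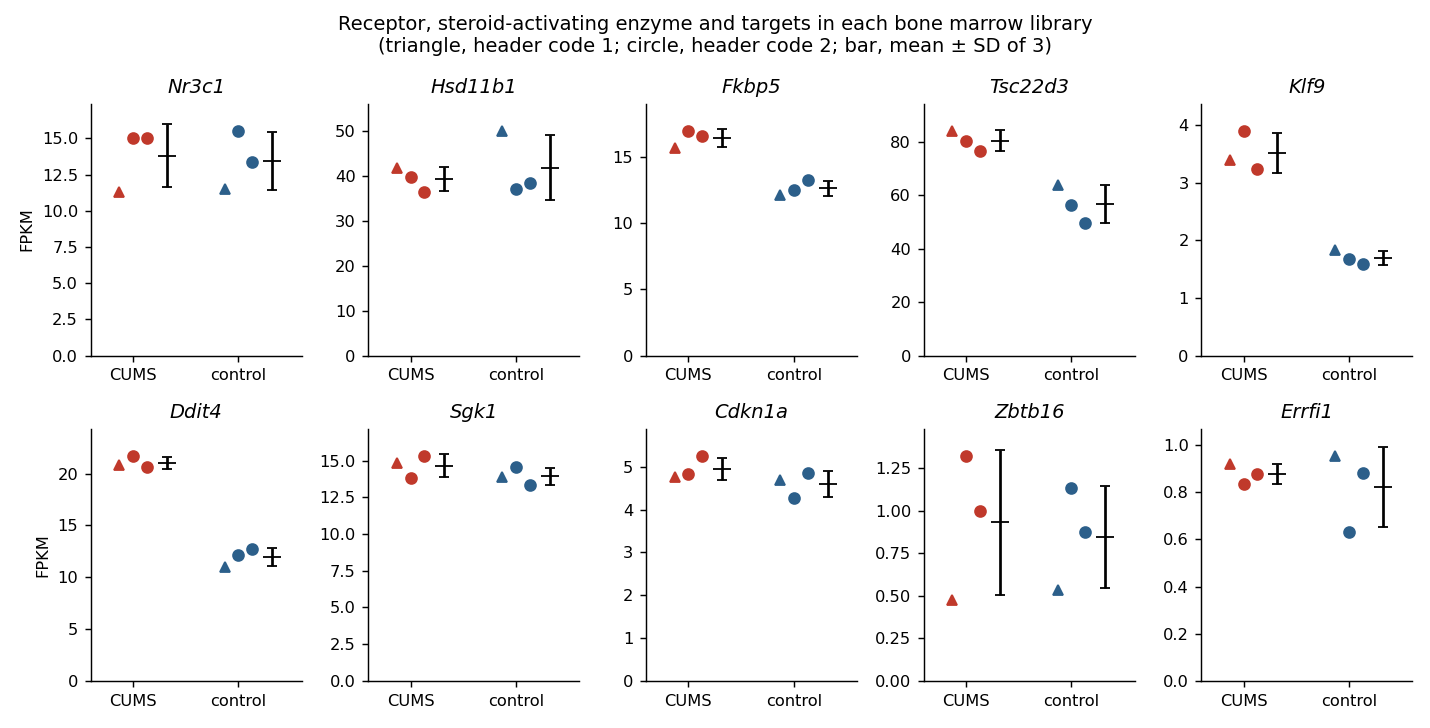
FPKM of the 10 genes in each library, CUMS left of control, with triangles for header code 1, circles for header code 2, and the mean ± SD of 3 libraries beside the points. Ddit4, Klf9, Tsc22d3 and Fkbp5 show no overlap between groups, while the points of the other 6 genes overlap.

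Nr3c1, the receptor itself (chromosome 18, 39410545 to 39519421, GRCm38, minus strand), was at 11.3, 15.0 and 15.1 FPKM in CUMS replicates 1, 2 and 3, against 11.5, 15.5 and 13.3 FPKM in control replicates 1, 2 and 3. The low library of each group was replicate 1, the one with header code 1. Nr3c1 was higher by 0.34 (log2) in code 2 than in code 1 with the group in the fit (limma adjusted p = 0.0178), but between the groups its log2 change was 0.03 (95% interval −0.32 to 0.38, limma adjusted p = 0.951). Within code 2 alone the change was 0.06 (interval −0.15 to 0.27). The sign turned when the libraries were scaled to the same total (−0.01).

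Hsd11b1 (chromosome 1, 193221640 to 193264045) encodes the enzyme that regenerates active corticosterone from its inert keto form inside cells. It was at 41.6, 39.7 and 36.3 FPKM in CUMS, against 49.97, 37.0 and 38.3 FPKM in controls, and the highest library of each group was replicate 1. Its log2 change was −0.08 (interval −0.38 to 0.22, limma adjusted p = 0.834), and it took the other sign, 0.01, in the libraries with code 2. Of the other genes that set how much steroid reaches the receptor, 3 of 7 passed the minimum and none was called by limma or had an unadjusted p under 0.05 (0 of 3). H6pd, which supplies the NADPH for the enzyme's reductase direction, averaged 8.71 ± 0.191 FPKM in CUMS and 9.92 ± 1.08 FPKM in controls (SD, n = 3 each; log2 change −0.16, limma adjusted p = 0.516). The opposing enzyme Hsd11b2 and the mineralocorticoid receptor Nr3c2, which binds the same hormone, were under the minimum, with means of 0.211 and 0.0435 FPKM in CUMS and 0.133 and 0.0267 FPKM in controls. Serpina6, the corticosteroid-binding globulin made by the liver, was listed at 0 in all 6 libraries.

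Fkbp5 (chromosome 17, 28398753 to 28486149) encodes a co-chaperone that lowers the receptor's affinity for hormone and so closes a short feedback loop. Its levels were 15.7, 17.0 and 16.6 FPKM in CUMS, against 12.2, 12.5 and 13.3 FPKM in controls. The lowest CUMS library lay above the highest control library. The ratio of the means was 1.30 and the log2 change 0.35 (SE 0.09, interval 0.15 to 0.56, limma adjusted p = 0.118, with the replicate block 0.0351). It was 0.34 in the pair with code 1 and 0.36 in code 2. Of 18 chaperones and co-regulators of the receptor none was called by limma (0 of 18 with an unadjusted p under 0.05), and the median log2 change was 0.06. Of these, the 4 with the smallest p were the mediator subunit Med14, the HSP90 co-chaperones Ptges3 and Ppid, and the remodelling ATPase Smarca4, with log2 changes of 0.28, 0.25, 0.22 and −0.31 and limma adjusted p-values of 0.388, 0.393, 0.481 and 0.458. The block called none of the 18 either, but with the header code as a term Smarca4 was called lower (adjusted p = 0.0407), and the calls in the libraries with code 2 alone included Smarca4 as lower and Ppid and Hsp90aa1 as higher (adjusted p = 0.0146, 0.0265 and 0.0135).

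Tsc22d3 (chromosome X, 140539528 to 140600522) encodes GILZ, a leucine zipper protein that restrains inflammatory transcription factors. It was the most abundant of the 10 transcripts, with 84.3, 80.6 and 76.6 FPKM in CUMS, against 63.9, 56.6 and 49.5 FPKM in controls. The groups did not overlap, and controls were more spread than CUMS. The ratio of the means was 1.42 and the log2 change 0.50 (SE 0.11, interval 0.24 to 0.77, limma adjusted p = 0.0838, with the replicate block 0.0141). It was 0.39 in code 1 and 0.56 in code 2. It also passed after quantile normalization (adjusted p = 0.0290) and after scaling to the same total (0.0491).

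Klf9 (chromosome 19, 23141226 to 23168129), a Krüppel-like transcription factor that the receptor induces in many tissues, was at 3.39, 3.90 and 3.23 FPKM in CUMS, against 1.83, 1.67 and 1.59 FPKM in controls. Every CUMS library was well above every control library, and the ratio of the means, 2.07, was the highest of the 10. The log2 change was 0.74 (SE 0.11, interval 0.47 to 1.00, limma adjusted p = 0.0293); at these low levels the pseudocount of 1 shrinks it, and it was 1.00 with a pseudocount of 0.1. It was 0.63 in code 1 and 0.79 in code 2. With 1 library left out, the adjusted p was 0.0392 for control replicate 1, 0.0648 for CUMS replicate 1, 0.178 and 0.122 for CUMS replicates 2 and 3, and 0.118 and 0.162 for control replicates 2 and 3. Without the minimum on FPKM it was 0.119.

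Ddit4 (chromosome 10, 59949675 to 59951770) encodes an inhibitor of the growth kinase mTORC1 that glucocorticoids, hypoxia and the integrated stress response all induce. It was at 20.8, 21.7 and 20.6 FPKM in CUMS, against 10.999, 12.1 and 12.7 FPKM in controls. The 3 libraries of each group lay close together and the groups far apart. The log2 change of 0.77 (SE 0.09, interval 0.56 to 0.98, limma adjusted p = 0.0120) was the largest of the 8 and ranked 114 among the 12302 tested genes at a pseudocount of 1. Klf9 was ahead of Ddit4 at pseudocounts of 0.5 (0.86 against 0.79) and 0.1 (1.00 against 0.81), in the libraries with code 2, and without control replicate 1 (0.77 against 0.72). The change of Ddit4 was 0.86 in code 1 and 0.72 in code 2. With 1 library left out, the adjusted p was 0.0170 for control replicate 1, 0.0401 for CUMS replicate 1, 0.0865 and 0.0835 for CUMS replicates 2 and 3, and 0.0621 and 0.0735 for control replicates 2 and 3.

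Sgk1 (chromosome 10, 21882184 to 21999903), the serum- and glucocorticoid-regulated kinase that controls ion channels and cell survival, holds the full GRE shown above. Its levels were 14.8, 13.8 and 15.3 FPKM in CUMS, against 13.9, 14.5 and 13.4 FPKM in controls, and the groups overlapped. The log2 change was 0.07 (SE 0.09, interval −0.14 to 0.28, limma adjusted p = 0.784). The file gives 1 value per gene, so the 6 start sites could not be told apart. Cdkn1a (chromosome 17, 29090979 to 29100722), the cell cycle inhibitor p21, was at 4.77, 4.82 and 5.25 FPKM in CUMS, against 4.69, 4.27 and 4.85 FPKM in controls. Its groups overlapped as well, with a log2 change of 0.09 (interval −0.15 to 0.32, limma adjusted p = 0.757). Exons of an annotated gene on the opposite strand overlap 273 of its 3553 exon bases, the only such overlap among the 10, and whether the authors counted by strand is not stated.

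Zbtb16 and Errfi1 stayed under the minimum and were compared by an exact permutation test, which cannot go below 0.1 with 3 against 3 libraries. Zbtb16 (chromosome 9, 48651797 to 48836225), a zinc finger factor of innate-like lymphocytes and stem cells, was at 0.473, 1.32 and 0.997 FPKM in CUMS, against 0.535, 1.13 and 0.872 FPKM in controls (two-sided exact permutation p = 0.8). Replicate 1 was again the low library of both groups. Errfi1 (chromosome 4, 150853796 to 150868889), a feedback inhibitor of the epidermal growth factor receptor, was at 0.919, 0.832 and 0.877 FPKM in CUMS, against 0.953, 0.630 and 0.880 FPKM in controls (two-sided exact permutation p = 0.9). Both genes had overlapping groups.

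**Figure D3:**
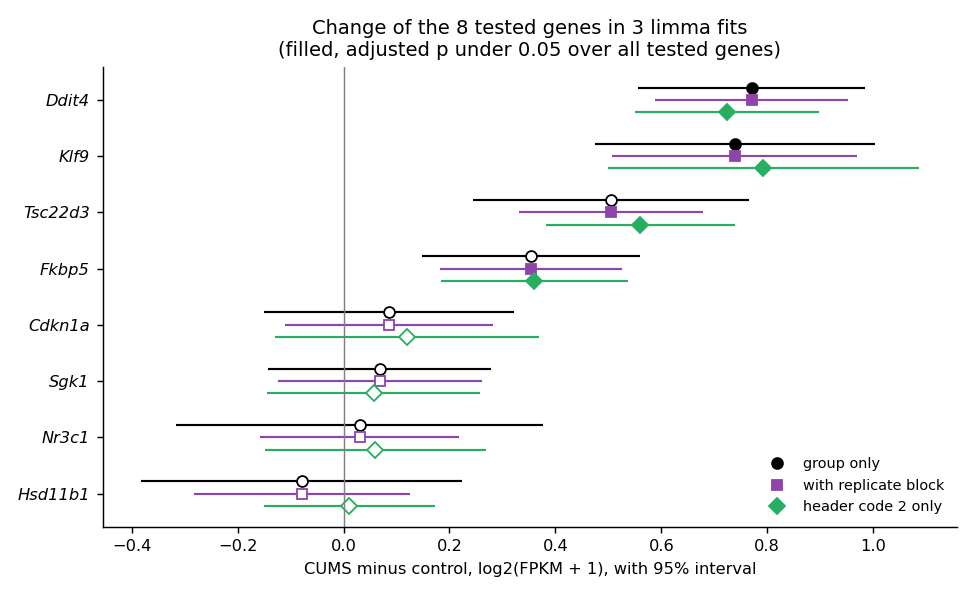
Log2 change (CUMS minus control, log2(FPKM + 1)) of the 8 tested genes with its 95% interval in 3 limma fits: group only, with the replicate number as a block, and in the 4 libraries with header code 2 alone. Filled points have an adjusted p under 0.05 over all 12302 genes; Ddit4 and Klf9 are filled in all 3 fits, Tsc22d3 and Fkbp5 in 2, and the other 4 genes in none.

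FPKM is scaled by length, so the levels of the 10 genes can be ordered. In CUMS the order was Tsc22d3, Hsd11b1, Ddit4, Fkbp5, Sgk1, Nr3c1, Cdkn1a, Klf9, Zbtb16 and Errfi1, with means of 80.5, 39.2, 21.05, 16.4, 14.6, 13.8, 4.94, 3.51, 0.930 and 0.876 FPKM. Among neighbours in that order, the ranges of 3 libraries overlapped only for Sgk1 with Nr3c1 and for Zbtb16 with Errfi1. In controls Ddit4 came sixth, at a mean of 11.9 FPKM, below Sgk1, Nr3c1 and Fkbp5 (13.9, 13.5 and 12.6 FPKM), and each of these 4 overlapped its neighbour. Tsc22d3 and Hsd11b1 did not overlap in CUMS and did in controls. Over the 6 libraries the tested genes with the profile most like that of Nr3c1 were Eml4, Mcf2l and Capns2 (Pearson r of log2 levels 0.998, 0.995 and 0.995), and with that of Fkbp5 they were LOC115487644, Dkc1 and Col1a2 (0.994, 0.994 and 0.994). These values share the header code and the group as sources of spread and describe the 6 libraries only.

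**Figure D4:**
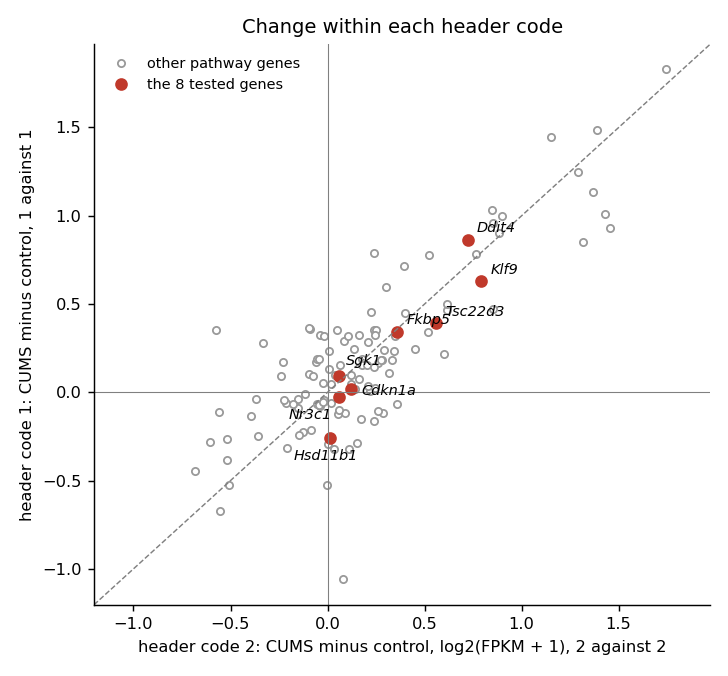
Log2 difference between CUMS and control in the pair of libraries with header code 1 (vertical) against that in the 4 libraries with code 2 (horizontal), for the 8 tested genes and for the other pathway genes described. Ddit4, Klf9, Tsc22d3 and Fkbp5 lie in the upper right in the order 0.86, 0.63, 0.39 and 0.34 on the vertical axis, and Hsd11b1 is at −0.26 there and 0.01 on the horizontal one.

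Other genes that glucocorticoids are known to induce were mixed. Of 27, 24 were tested and 2 rose, Mt2 and Dusp1, while none fell; with the replicate block 6 rose (these, Mt1, Per1, Nfkbia and Il7r) and 2 fell (Cebpd and Bcl6). The median log2 change was 0.13. The metallothionein Mt2 averaged 42.6 ± 4.00 FPKM in CUMS and 17.1 ± 3.38 FPKM in controls, and Dusp1, a phosphatase that switches off stress kinases, averaged 216 ± 18.3 FPKM in CUMS and 141 ± 3.17 FPKM in controls (SD, n = 3 each; log2 changes 1.28 and 0.61, limma adjusted p = 0.0120 and 0.0331). The metallothionein Mt1 had a log2 change of 0.57 (limma adjusted p = 0.0530, with the block 0.00944). Per1, a clock gene with receptor-driven expression, was at 9.77, 16.5 and 15.5 FPKM in CUMS, against 2.96, 7.00 and 6.31 FPKM in controls (log2 change 1.25, limma adjusted p = 0.0997, with the block 0.00210). Replicate 1 was low in both groups. With 1 library left out, the number called was 1 for CUMS replicate 1, 3 for control replicate 1, 1 for control replicate 2 and 0 for each of the other 3.

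Inflammatory genes that glucocorticoids are known to repress went both ways, but more often up. Of those tested, 8 had a log2 change above 0 and 4 below. Of 17, 12 were tested, 4 rose and none fell, with a median log2 change of 0.22; with the block Ptgs2 was added to those that rose, and 2 fell, Cxcl10 and Mmp9 (log2 changes −0.59 and −0.50, adjusted p = 0.0234 and 0.0240 with the block). The summed level of the 17 was 506 to 526 FPKM in CUMS and 529 to 593 FPKM in controls, lower in every CUMS library. Most of that sum was Mmp9, a matrix protease of neutrophil granules, at a mean of 291 FPKM in CUMS and 412 FPKM in controls. The lower sum thus follows Mmp9 and does not give the direction of the other genes. The 4 are the chemokines Cxcl2, Ccl3, Ccl4 and Ccl2, which attract neutrophils, monocytes and other leukocytes. Cxcl2 averaged 41.0 ± 3.93 FPKM in CUMS and 16.3 ± 1.93 FPKM in controls (log2 change 1.28, limma adjusted p = 0.00565; SD, n = 3 each). Ccl3 and Ccl4 had log2 changes of 1.29 and 1.29 (limma adjusted p = 0.00717 and 0.0115), and Ccl2 averaged 2.52 ± 0.630 FPKM in CUMS and 0.571 ± 0.215 FPKM in controls (1.16, limma adjusted p = 0.0278; SD, n = 3 each). Leaving out a library gave 3, 2 and 1 calls for CUMS replicates 1, 2 and 3, and 5, 3 and 1 for control replicates 1, 2 and 3.

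Several members answer to other pathways as well, so the genes of these were read beside them. Of 20 immediate-early genes, which any abrupt stimulus or tissue handling can raise, 17 were tested and 4 rose (Jun, Fos, Egr1 and Atf3), with a median of 0.40; with the block 9 rose. Fos, whose product dimerizes with that of Jun, averaged 329 ± 5.24 FPKM in CUMS and 175 ± 13.7 FPKM in controls, and the zinc finger factor gene Egr1 averaged 45.2 ± 9.17 FPKM in CUMS and 16.4 ± 4.20 FPKM in controls (SD, n = 3 each; log2 changes 0.91 and 1.42, limma adjusted p = 0.00887 and 0.0285). The summed level of all 20 immediate-early genes was 1397 to 1534 FPKM in CUMS and 1031 to 1098 FPKM in controls. Leaving out a library gave 4, 0 and 0 calls for CUMS replicates 1, 2 and 3, and 4, 2 and 0 for control replicates 1, 2 and 3. Of 15 p53 targets, the pathway that also drives Cdkn1a, 11 were tested and 1 rose, the kinase gene Plk2 (4.76 ± 0.399 FPKM in CUMS and 2.01 ± 0.0888 FPKM in controls, SD, n = 3 each; limma adjusted p = 0.0115), with a median of 0.01. With the block Perp passed as well (adjusted p = 0.0283), and Plk2 was not called once replicate 2 or 3 of either group was left out. For the pathways shared with Ddit4, none of 8 tested ATF4 targets and none of 8 tested hypoxia targets was called by limma (2 and 2 with an unadjusted p under 0.05). Their medians were 0.03 and −0.09. With the block 2 ATF4 targets fell, the glutathione-degrading enzyme Chac1 and the transcription factor Atf5 (log2 changes −0.61 and −0.51, adjusted p = 0.0221 and 0.0202). With the header code as a term these 2 fell and 2 rose, the pathway's own factor Atf4 and the serine synthesis enzyme Phgdh (log2 changes 0.25 and 0.28, adjusted p = 0.0324 and 0.0429). The hypoxia target with the smallest p, the kinase gene Pdk1, had a log2 change of 0.38 (limma adjusted p = 0.145, and 0.0288 with the header code as a term). Of 17 clock genes, which bear on the hour of collection, 12 were tested and none was called by limma (2 with an unadjusted p under 0.05). The median was 0.17, and with the block 1 rose, Per1. Yet 5 of the 12 had groups apart with CUMS higher, and 0 with CUMS lower. The summed level of the 17 was 60.4 to 65.1 FPKM in CUMS and 46.1 to 54.1 FPKM in controls. Per1 alone averaged 13.9 FPKM in CUMS and 5.42 FPKM in controls. The part of handling and hour in the changes of Ddit4, Klf9, Tsc22d3 and Fkbp5 was not tested.

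**Figure D5:**
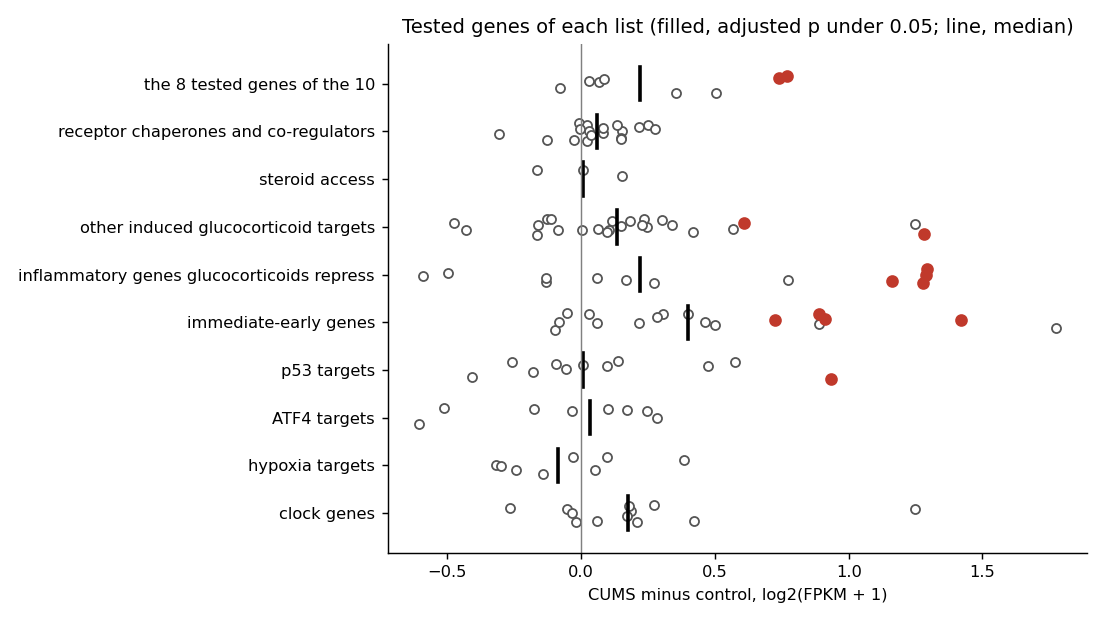
Log2 change (CUMS minus control, log2(FPKM + 1)) of each tested gene of the 10 followed here and of 9 pathway lists, with a line at each list's median and filled points for an adjusted p under 0.05. The median is 0.22 for the 8 tested genes, 0.40 for the immediate-early genes and 0.03 for the ATF4 targets.

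Some cell type markers differed between the groups too. Of 12 monocyte and macrophage markers 2 fell, Cx3cr1 and Csf1r, and 7 with the replicate block (summed level 1114 to 1230 FPKM in CUMS and 1165 to 1439 FPKM in controls), of 9 markers of eosinophils, basophils and mast cells 4 rose, Epx, Ear6, Prg2 and Ear1, and 5 with the block (1724 to 1773 FPKM in CUMS and 815 to 1108 FPKM in controls), and of 9 tested markers of stromal and bone cells 1 rose, Col1a2, and 3 with the block (117.8 to 129 FPKM in CUMS and 93.6 to 97.1 FPKM in controls, over all 15). Leaving out a library gave 1, 0 and 0 calls for CUMS and 2, 1 and 0 for control replicates 1, 2 and 3 in the monocyte list, 2, 1 and 1 for CUMS and 5, 2 and 1 for controls in the eosinophil list, and 1 in the stromal list without control replicate 1, with 0 otherwise. None of 15 erythroid, 13 neutrophil, 11 B cell, 13 T and NK cell and 5 tested megakaryocyte markers was called by limma (3, 0, 4, 3 and 0 with an unadjusted p under 0.05), and the medians were 0.19, −0.09, −0.25, 0.14 and −0.01. Yet all 15 erythroid markers had a log2 change above 0, and 6 had groups apart (10% of all tested genes, CUMS higher). Haemoglobin genes made up 31.7 to 35.3% of summed FPKM in CUMS and 28.8 to 29.2% in controls. Mitochondrial genes made up 2.68 to 3.63% in CUMS and 4.11 to 5.09% in controls. With the block 4 B cell markers fell, 2 erythroid markers rose (Gata1 and Car1) and 1 T and NK cell marker rose (Cd8b1). With the header code as a term 8 monocyte and macrophage markers and 6 B cell markers fell, and 3 erythroid, 2 T and NK cell and 1 neutrophil marker rose. Of all tested genes, the block called 3.49% higher and 4.31% lower, and the header code as a term 6.06% higher and 7.31% lower. In lists this small each gene is a large part, so counts of 1 or 2 were read neither as a shift nor as its absence. The summed B cell level was 518 to 573 FPKM in CUMS and 613 to 708 FPKM in controls. No marker in these 8 lists was at 0 in all libraries. In bulk marrow, more RNA of a gene per cell and more cells that express it cannot be told apart, and the part of the mixture in the results was not tested.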

How the data were processed

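RNA of 6 bone marrow libraries, 3 CUMS and 3 control, was extracted with TRIzol, made into TruSeq libraries and sequenced as paired reads of 151 bp, per the labels' protocols. Per the submitters' processing notes, the build was mm10 (GRCm38) and the tools included HISAT2 2.1, featureCounts 1.6.4 and cutadapt 1.16.5; their roles, and the use of strand, are not given in the sources used here. The deposited values were read as FPKM from the values themselves: they are not whole, their sums differ between libraries, and value times length of the longest GENCODE transcript in kilobases sums to 959134 to 1020437. They go down to 1e-06 and follow no whole-read step, so counts were not recovered, depth in reads is unknown, and precision rests on the spread of 3 libraries.

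A gene had to reach 1 FPKM in 3 or more libraries to be tested by limma (trend) on log2(FPKM + 1), with group as the only term and Benjamini-Hochberg adjustment over 12302 genes (R 4.3.3, limma 3.58.1; Python 3.11.15). The fit was tested on simulated data. The members, the 9 pathway and 8 marker lists (235 entries) and the tests were chosen with earlier results of these data known. Named genes were the members, up to 4 genes with the smallest p per pathway list, and the 3 genes most like Nr3c1 and Fkbp5; Ddx3y, Erdr1 and list members such as H6pd, Hsd11b2, Nr3c2 and Serpina6 named for their role were added after their values were seen. Alternatives were other pseudocounts, filters and scalings, a replicate block, the header code, and leaving out each library.

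Replicate numbers come from the titles. Deviations from group means correlated by 0.689, 0.452 and 0.363 over genes for libraries with the same number, all over the minimum of 0.1 set for treating them as pairs, but by 0.459 and 0.362 for replicates 2 and 3 crossed, so the number may stand for the header code alone.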

Additional observations from a re-analysis of the deposited data

How the results depend on the processing

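Over all tested genes 132 were called (57.6% of them higher in CUMS). The count was 36 with no filter, 959 with the replicate block (44.7% higher), 1645 with the header code as a term, 2173 in the libraries with code 2, 199 after quantile normalization, and 17 to 262 when 1 library was left out. Scaling to the same total gave 166 calls, 39.2% of them higher, with the median log2 change of all genes at −0.0359 in place of −0.0017. Of the 8 tested members 2 were called. This was 1 with no filter (Klf9 lost, adjusted p = 0.119) and 1 at a mean of at least 5 FPKM, which left Klf9 untested. It was 4 with the replicate block, with the header code as a term and in the libraries with code 2, and 0 to 3 when 1 library was left out. The block changed no call of the other members beyond adding Tsc22d3 and Fkbp5. With 3 members called after quantile normalization and after both scalings to a total, Tsc22d3 was the one added. No called member changed sign under any alternative; Nr3c1 and Hsd11b1, near 0, did in 4 and 2 of them. The cause of these shifts was not tested, except that fewer libraries or other genes tested follow from how an alternative is built. Leaving out replicate 1 of either group also leaves header code 1 in the other group only, so group and code are then unbalanced. Depth in reads is unknown, so the precision of Zbtb16 and Errfi1, under 1.4 FPKM, cannot be given beyond their spread.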
